A study of Homo sapiens with 18 samples.

Results

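Cancer-testis antigen genes are active in germ cells and placenta, silent in most other adult tissues, and switched on in many tumours, melanoma among them. The 76 genes described here were chosen by symbol from 56629 in the count tables. They are the numbered genes of the MAGEA (15), MAGEB (10), MAGEC (3), SSX (11), GAGE (17), PAGE (6) and XAGE (9) families, the 3 CTAG genes CTAG1A, CTAG1B and CTAG2, and the single genes ACTL8 and PRAME. Of these, 70 were placed on the X chromosome, ACTL8 on chromosome 1 and PRAME on chromosome 22, and 4 had no match in the annotation used.

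Polyadenylated RNA was sequenced from lines of 2 human metastatic melanoma cell lines, SKmel147, of the NRAS-mutant subtype, and 501mel, of the BRAF-mutant subtype. CRISPR was aimed at ARID2, a subunit of PBAF, which is 1 of the SWI/SNF complexes that remodel chromatin. In SKmel147 the KO lines (KO3.20, KO1.5 and KO1.4) and the control line NT had been stably infected with Lenti-Cas9 and a PLKO guide construct, and the control line Par carried no construct. In 501mel both KO lines, KO5.2 and KO1.8, and the control line NTC carried the single vector Lenti-CRISPR V2 for Cas9 and guide, and Par carried none. NT and NTC are not spelled out in the labels. Each line had 2 libraries, 18 in all, and the labels state neither separate cultures for the 2 nor whether a line is 1 clone. A p-value here therefore measures library spread alone, possibly technical, and a difference between lines can be a difference between clones.

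Most of these genes are silenced in somatic cells by DNA methylation at CpG-rich promoters and by repressive chromatin, and loss of that methylation in tumours is the best known route to their expression. Their products are presented as peptides on HLA class I molecules, which makes them targets of T cells and of cancer vaccines. MAGE proteins bind ubiquitin ligases, PRAME is a substrate receptor of a cullin ligase, SSX proteins are chromatin-bound repressors, and GAGE, PAGE and XAGE proteins are small proteins whose functions are little known.

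The promoters of 6 genes are printed because the results turn on these genes: ACTL8, GAGE2A, PAGE5 and MAGEA4 were lower in both 501mel KO lines, XAGE1A was lower in the KO lines of SKmel147 and higher in those of 501mel, and MAGEA3 was called in neither cell line when its KO lines were compared as a group. Each stretch runs 5′ to 3′ from 250 bases before to 50 bases after the annotated start, as listed by RefSeq for GRCh38.p14, and the capitals mark CpG dinucleotides. ACTL8 is at chr1:17755083-17755382 on the plus strand, GAGE2A at chrX:49589246-49589545 on the plus strand, PAGE5 at chrX:55220096-55220395 on the plus strand, MAGEA4 at chrX:151912224-151912523 on the plus strand, XAGE1A at chrX:52495627-52495926 on the plus strand and MAGEA3 at chrX:152698544-152698843 on the plus strand. MAGEA4 has 5 listed starts and XAGE1A has 2, and the one listed first is shown.
ACTL8: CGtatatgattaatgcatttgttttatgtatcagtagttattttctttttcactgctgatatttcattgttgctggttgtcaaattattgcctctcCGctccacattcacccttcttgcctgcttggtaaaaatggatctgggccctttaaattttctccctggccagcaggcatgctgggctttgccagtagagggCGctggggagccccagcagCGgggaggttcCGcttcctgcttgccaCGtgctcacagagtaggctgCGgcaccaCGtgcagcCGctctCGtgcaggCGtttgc
GAGE2A: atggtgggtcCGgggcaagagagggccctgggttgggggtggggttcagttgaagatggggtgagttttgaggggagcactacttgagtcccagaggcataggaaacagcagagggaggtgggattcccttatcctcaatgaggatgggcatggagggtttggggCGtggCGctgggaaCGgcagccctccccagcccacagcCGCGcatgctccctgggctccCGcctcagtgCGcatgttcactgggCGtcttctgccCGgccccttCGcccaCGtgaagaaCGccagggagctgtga
PAGE5: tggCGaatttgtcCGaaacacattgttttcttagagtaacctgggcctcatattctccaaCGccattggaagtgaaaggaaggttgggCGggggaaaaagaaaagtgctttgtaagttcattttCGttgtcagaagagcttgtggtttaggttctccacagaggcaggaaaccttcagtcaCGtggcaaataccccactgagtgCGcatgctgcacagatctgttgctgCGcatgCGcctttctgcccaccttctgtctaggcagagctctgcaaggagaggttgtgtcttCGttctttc
MAGEA4: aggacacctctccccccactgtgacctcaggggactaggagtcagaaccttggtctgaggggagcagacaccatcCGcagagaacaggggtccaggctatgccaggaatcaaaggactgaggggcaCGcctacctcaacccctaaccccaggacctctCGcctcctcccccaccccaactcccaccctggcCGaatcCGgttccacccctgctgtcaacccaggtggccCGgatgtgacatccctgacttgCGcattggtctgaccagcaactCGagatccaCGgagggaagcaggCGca
XAGE1A: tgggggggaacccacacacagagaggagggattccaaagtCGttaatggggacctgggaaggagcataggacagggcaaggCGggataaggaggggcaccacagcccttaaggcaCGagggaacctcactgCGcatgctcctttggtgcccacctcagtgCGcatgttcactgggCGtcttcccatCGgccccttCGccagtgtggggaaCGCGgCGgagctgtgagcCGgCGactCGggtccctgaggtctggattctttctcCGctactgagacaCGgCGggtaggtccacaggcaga
MAGEA3: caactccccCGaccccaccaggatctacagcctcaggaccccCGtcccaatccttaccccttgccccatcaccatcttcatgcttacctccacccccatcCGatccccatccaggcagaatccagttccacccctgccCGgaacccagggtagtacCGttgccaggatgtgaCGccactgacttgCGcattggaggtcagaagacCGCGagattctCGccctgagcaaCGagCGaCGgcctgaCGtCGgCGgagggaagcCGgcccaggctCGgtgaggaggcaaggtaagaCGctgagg

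RefSeq promoters were matched for 54 of the 76 genes. Their median number of CpG dinucleotides in 300 bases was 12, with a range of 1 for MAGEB1 to 21 for MAGEA11 and MAGEB2, against a median of 14 over all 35116 promoters in the table. ACTL8 had 11, GAGE2A 13, PAGE5 10, MAGEA4 10, XAGE1A 17 and MAGEA3 19. The promoter of GAGE2A matched those of GAGE12C, GAGE12D, GAGE12E, GAGE12F, GAGE12H and GAGE12J in 300 of 300 bases, and that of GAGE13 in 299. The letters CCGGAA, 1 form of an ETS-type site and read on both strands, occurred in 4 of the 54 promoters (MAGEA3, MAGEA6, MAGEB6 and PRAME), against 17.2% of all promoters of this length. Other forms of the site were not counted, and the identical GAGE promoters enter the 54 separately.

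Libraries held between 21266522 and 35670140 counted reads in SKmel147 and between 16749707 and 20606855 in 501mel. ARID2 messenger RNA was lower in the KO lines as a group, with a change of -0.43 ± 0.08 on the log2 scale in SKmel147 (± SE, adjusted p = 0.00390, edgeR quasi-likelihood test with Benjamini-Hochberg adjustment) and of -0.73 ± 0.05 in 501mel (adjusted p = 3.74e-08, same test), and it remained detectable in every KO library. By line the change was -0.25 in KO1.4, which was not called, -0.41 in KO1.5 and -0.64 in KO3.20. In 501mel it was -0.42 in KO1.8 and -1.05 in KO5.2. Of the melanocyte markers, PMEL ranged from 2799.7 to 2995 CPM (depth-normalised counts after TMM scaling) in the 501mel KO libraries and from 2478 to 3072 CPM in the 501mel controls. In SKmel147 it was at or below 0.214 CPM in the KO libraries and 1.35 CPM in the controls, TYR was at or below 0.0611 CPM in KO and 0.589 CPM in controls, and SOX10 was at 155 to 223 CPM in KO and 146 to 249.5 CPM in controls, so most pigment markers were near 0 there. The summed level of 9 markers of leukocytes, endothelium, keratinocytes and germ cells was 2.26 to 3.40 CPM in the SKmel147 KO libraries against 0.989 to 1.66 CPM in the controls, most of it KRT14, and 0.0525 to 0.338 CPM against 0.0585 to 0.490 CPM in 501mel. Of the 3 germ cell markers, DAZL was at 0 in every library and DDX4 at or below 0.0483 CPM. SYCP3 was at 0.257 to 0.863 CPM in the SKmel147 KO libraries against 0.288 to 0.611 CPM in the controls, and at 0.0525 to 0.145 CPM against 0.0585 to 0.343 CPM in 501mel. The part of these markers in the SKmel147 results was not tested.

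Several of the 76 rows are near-identical copies, and their counts were not independent. XAGE1A and XAGE1B had the same count in 14 of 18 libraries, and each had between 1.993 and 2 times the count of XAGE1C. CTAG1A had 2.988 to 2.999 times the count of CTAG1B in the 8 501mel libraries, SSX4 had 3 times the count of SSX4B wherever both reached 10 reads, and GAGE12C, GAGE12D and GAGE12E had the same count wherever they reached 10. Among member rows with counts in at least 6 libraries, 9 of 54 held only even counts, MAGEA1 among them, against 734 of 28054 (2.62%) of all symbols, so a count in these rows cannot be read as that many distinct fragments. For these reasons each family was also tested as 1 summed row, and a count of rows is not a count of independent genes. A sum can itself hold the same read more than once.

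**Figure D1:**
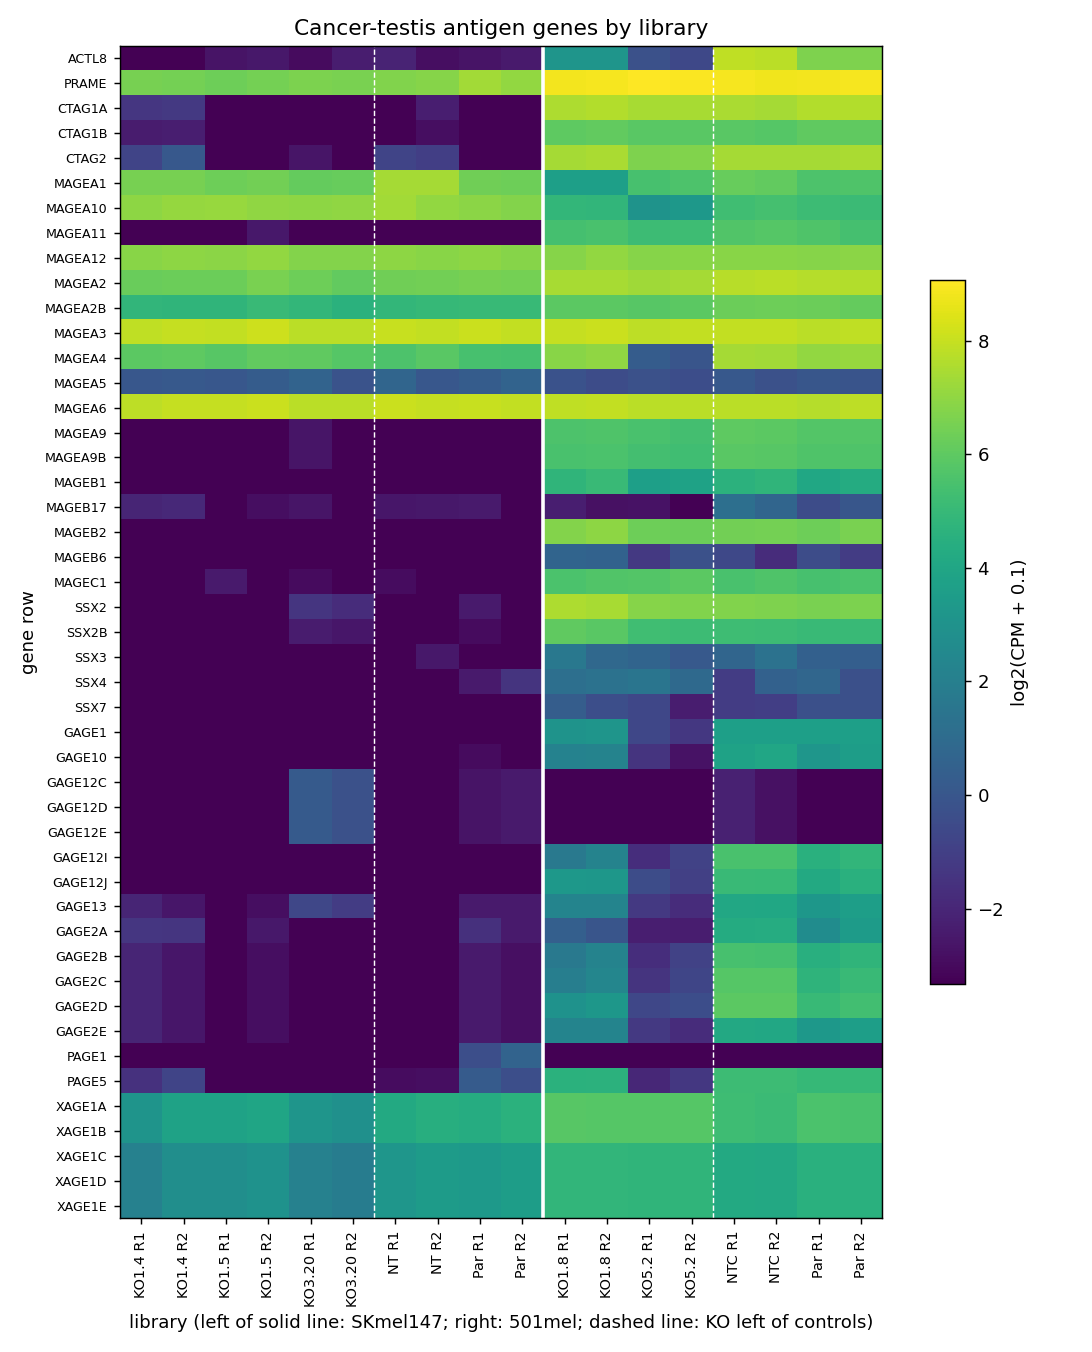
Level of each cancer-testis antigen gene that reached 1 CPM in any library, as log2(CPM + 0.1), with libraries in columns (SKmel147 left of the solid line, 501mel right of it, KO left of controls at the dashed lines) and genes in rows. MAGEA1, MAGEA2, MAGEA2B, MAGEA3, MAGEA4, MAGEA6, MAGEA10 and MAGEA12 were high in controls of both cell lines, MAGEA9, MAGEA9B and MAGEA11 and the CTAG, SSX, MAGEB, MAGEC, GAGE and PAGE rows mostly in 501mel alone, and ACTL8, the GAGE rows, PAGE5 and MAGEA4 are dark in 501mel KO5.2.

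The 2 cell lines expressed different sets of these genes. In 501mel, 39 genes were at or above 1 CPM in both libraries of KO1.8, 26 in KO5.2, 39 in NTC and 38 in Par. In SKmel147 the number was 14 in each KO line, 14 in NT and 15 in Par. At 0 in every library were 11 genes in 501mel and 27 in SKmel147. After the filter on low counts, 45 genes were tested in 501mel and 23 in SKmel147, of which 18 were tested in both, and 26 were tested in neither. Among the genes not tested the highest count in any library was 14 reads for SSX9 in 501mel and 9 for CTAG1A in SKmel147.

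Between the controls of the cell lines, 5 genes were higher and 38 lower in SKmel147 than in 501mel among 49 tested, where 43.1% of all genes tested were higher and 37.6% lower (80.7% in either direction) at an adjusted p under 0.05 (edgeR quasi-likelihood test, joint fit of 18 libraries). The 5 higher in SKmel147 were MAGEA1, MAGEA3, MAGEA5, MAGEA6 and MAGEA10. MAGEA10 averaged 129.6 ± 23.9 CPM in SKmel147 controls and 37.7 ± 3.54 CPM in 501mel controls (mean ± SD, n = 2 control lines each), a difference of 1.84 ± 0.08. The MAGEA sum differed little, by -0.21 ± 0.05 (adjusted p = 0.00227, edgeR quasi-likelihood test), while the sums of other families lay far apart. The CTAG sum was 0.475 and 0.540 CPM in NT and 0 and 0 CPM in Par of SKmel147, against 409 and 394 CPM in NTC and 431 and 446 CPM in Par of 501mel. The GAGE sum was 0 and 0 CPM in NT and 0.898 and 0.688 CPM in Par of SKmel147, against 322 and 319 CPM in NTC and 169 and 212 CPM in Par of 501mel, and no fold is given because 1 SKmel147 line was at 0 in each sum. Per kilobase of exon, MAGEA3 led in SKmel147 controls with 142 CPM per kilobase and CTAG1A in 501mel controls with 187 CPM per kilobase.

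In 501mel, ACTL8 and the GAGE sum were many-fold lower in both KO lines. PAGE5 and MAGEA4 were many-fold lower in KO5.2 and lower by less in KO1.8. Over both KO lines together, the XAGE1 rows and 4 SSX rows were higher by less. Of the 45 genes tested, 12 were higher and 22 lower in the KO lines than in the controls and 11 were not called, beside 51.3% of all 16230 genes tested that were called in either direction (24.7% higher and 26.5% lower; edgeR quasi-likelihood test). The median change was -0.27 on the log2 scale over the genes tested and -0.01 over all genes. Called in the same direction in both KO lines were 8 genes higher (SSX2, SSX4, SSX4B and the 5 XAGE1 rows) and 20 lower. The share of all genes called alike in both KO lines was not computed. The 8 and the 20 therefore need not concern these genes in particular. In 19 of the 45 all 4 KO libraries were below all 4 control libraries, and in 8 all were above, against 13.9% and 13.2% of all genes tested. The 19 include every tested GAGE row, and the 8 are SSX2, SSX4, SSX4B and the 5 XAGE1 rows. Many of these are copies, so neither number counts independent genes. The 2 KO lines share the same controls. In this bulk RNA, fewer cells expressing a gene and less RNA per cell cannot be told apart. With the line rather than the library as the replicate, 2 lines against 2, 0 of the 45 genes and 0 of all 17114 genes tested (0.00%) were called, 16 of the 45 and 13.8% of all genes had an unadjusted p under 0.05 (edgeR quasi-likelihood test), and limma voom with lines as blocks called 13, beside 5.80% of all genes. The calls below therefore describe these lines and are not calls about ARID2 KO lines in general.

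ACTL8 encodes an actin-related protein of the testis. It had 8.69 and 8.60 CPM in KO1.8 and 0.736 and 0.553 CPM in KO5.2, against 236 and 219 CPM in NTC and 101 and 101 CPM in Par. All 4 KO libraries were below all controls, KO5.2 below KO1.8, and NTC above Par. The level was 5.26% of the control mean in KO1.8 and 0.392% in KO5.2. The log2 change was -6.00 ± 0.07 for both KO lines (adjusted p = 2.00e-16, edgeR quasi-likelihood test), -4.13 ± 0.07 for KO1.8 and -7.87 ± 0.11 for KO5.2, and KO5.2 minus KO1.8 was -3.74 ± 0.18 (adjusted p = 2.02e-09, same test). The controls also differed, NTC minus Par being 1.17 ± 0.06 (adjusted p = 8.50e-09, same test). With the line as a block, ACTL8 was still called (adjusted p = 0.00347, limma voom), and with the line as the replicate it was not (adjusted p = 0.254, edgeR quasi-likelihood test). In SKmel147, ACTL8 had at most 4 reads in any library and was not tested.

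The GAGE genes encode small antigens that were first found as T cell targets in melanoma, and lie as tandem near-identical copies on the X chromosome. All 10 GAGE rows tested were lower in both KO lines, with log2 changes of -3.63 to -0.60 in KO1.8 and -6.90 to -4.92 in KO5.2 (adjusted p at most 3.20e-04 in KO1.8 and 2.20e-09 in KO5.2, edgeR quasi-likelihood test). The sum over the family was 50.5 and 56.1 CPM in KO1.8 and 3.36 and 3.32 CPM in KO5.2, against 322 and 319 CPM in NTC and 169 and 212 CPM in Par. The libraries of each line lay close together and no KO library reached a control. The summed row changed by -4.21 ± 0.08 in the KO lines, -2.21 ± 0.08 in KO1.8 and -6.21 ± 0.12 in KO5.2 (adjusted p = 3.92e-14, 1.04e-10 and 9.27e-14, edgeR quasi-likelihood test), and NTC minus Par was 0.75 ± 0.08 (adjusted p = 2.71e-05, same test).

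Rows of the family differed among themselves. GAGE2A, whose promoter is printed above, had 1.25 and 0.870 CPM in KO1.8 and 0.105 and 0.101 CPM in KO5.2, against 19.4 and 20.1 CPM in NTC and 6.44 and 10.9 CPM in Par. GAGE1 had 8.12 and 8.60 CPM in KO1.8 and 0.525 and 0.302 CPM in KO5.2, against 12.7 and 12.7 CPM in NTC and 12.7 and 12.5 CPM in Par. In KO1.8, GAGE2A was at 7.46% and GAGE1 at 66.1% of the control mean, so the shallowest and the steepest row in that line differed widely, while in KO5.2 both were near 0, at 0.724% and 3.27%. GAGE1 was also the row whose controls did not differ, NTC minus Par being 0.00 ± 0.11, against 0.53 to 1.19 in the other 9, all called. These rows and PAGE5, MAGEA10, MAGEB1, MAGEB6, MAGEB17 and SSX2B below are outside the 20 most abundant tested genes in 501mel and are named after their values were seen. How reads matching several copies were counted is not given in the sources used here, so a single GAGE row is uncertain. The sum does not depend on how reads were split between copies. A read counted in several copies enters it more than once, so its CPM is not a level of distinct reads.

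**Figure D2:**
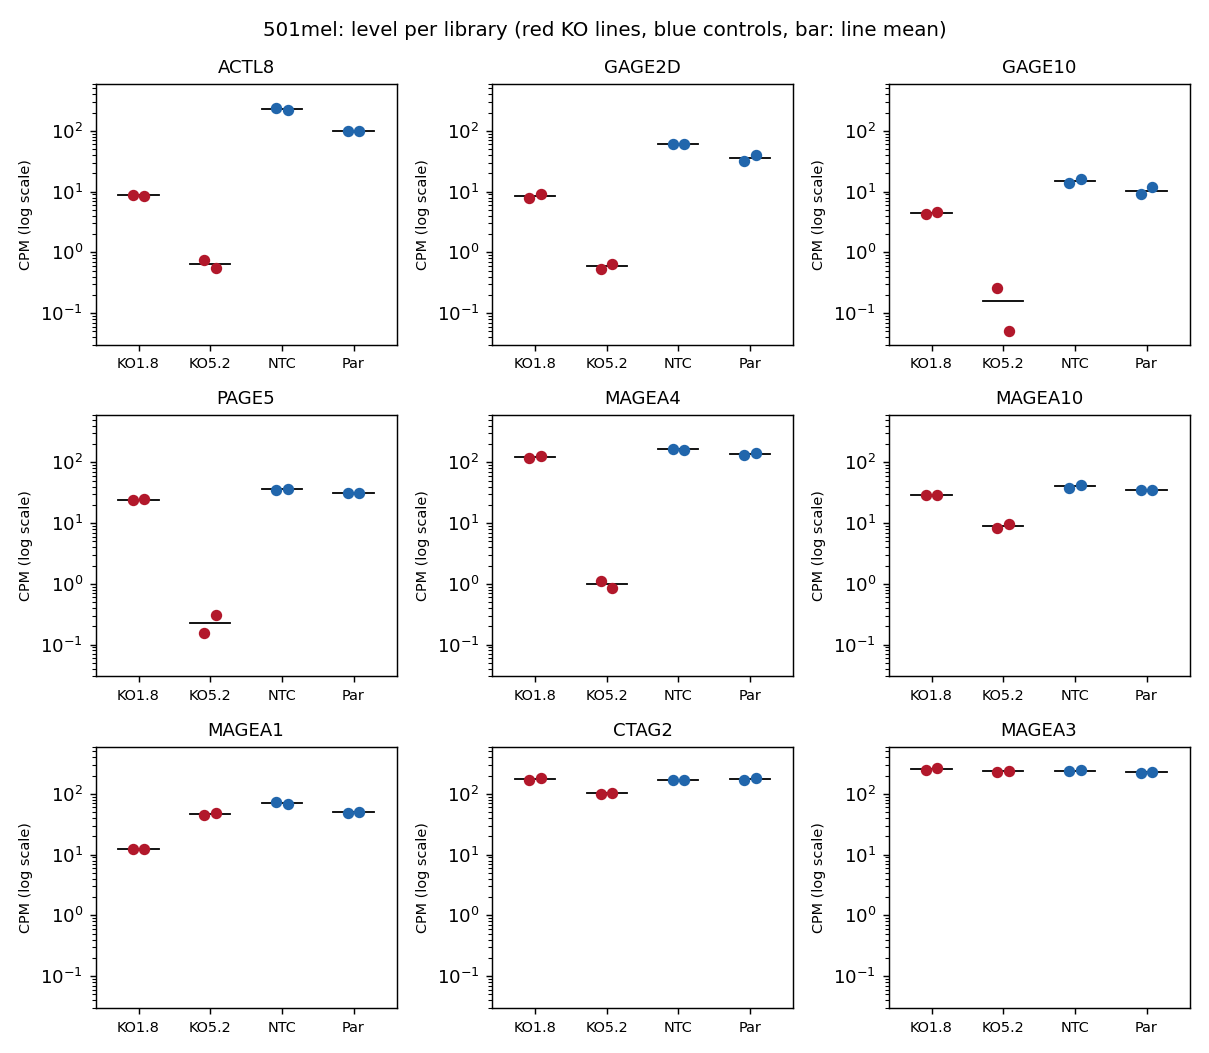
Level of 9 genes in each 501mel library in CPM on a shared logarithmic axis, with KO lines in red left of the controls in blue, 2 libraries per line as points and their mean as a bar. ACTL8 and GAGE2D fell in both KO lines and further in KO5.2, PAGE5 and MAGEA4 were slightly lower in KO1.8 and near 1 CPM or below in KO5.2, MAGEA1 was lowest in KO1.8, and MAGEA3 was level.

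PAGE5, a member of the GAGE-like PAGE family, had 23.7 and 25.04 CPM in KO1.8 and 0.158 and 0.302 CPM in KO5.2, against 35.4 and 36.3 CPM in NTC and 31.2 and 31.8 CPM in Par. Both KO1.8 libraries were below the controls and both KO5.2 libraries were close to 0. The log2 change was -0.46 ± 0.07 in KO1.8 (adjusted p = 8.56e-05) and -7.14 ± 0.16 in KO5.2 (adjusted p = 3.33e-13, edgeR quasi-likelihood test), and the KO lines differed by -6.68 ± 0.18. Over both KO lines it was -3.80 ± 0.10, and -0.46 without KO5.2. NTC minus Par was 0.19 ± 0.08, which was not called (adjusted p = 0.117, same test). The other 5 PAGE genes were not tested in 501mel, and the PAGE sum changed by -3.81 ± 0.10.

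The MAGEA family, ubiquitin ligase partners that include the founding antigen MAGEA1, moved unevenly: of 12 tested rows 8 were lower in the KO lines and the other 4 were not called. MAGEA4, reported to bind the DNA repair ligase RAD18, had 118 and 129 CPM in KO1.8 and 1.10 and 0.855 CPM in KO5.2, against 168 and 163 CPM in NTC and 135 and 141 CPM in Par. KO1.8 was slightly below the controls and KO5.2 was 155 times below their mean. The log2 change was -0.29 ± 0.05 in KO1.8 (adjusted p = 4.88e-04) and -7.26 ± 0.11 in KO5.2 (adjusted p = 4.71e-15, edgeR quasi-likelihood test), with 0.26 ± 0.06 for NTC minus Par. MAGEA10, which lies near MAGEA4 on the X chromosome, had 29.4 and 28.8 CPM in KO1.8 and 8.20 and 9.55 CPM in KO5.2, against 38.4 and 42.1 CPM in NTC and 35.5 and 34.95 CPM in Par. Over both KO lines the change of MAGEA4 was -3.78 ± 0.07, which rested on KO5.2 and was -0.29 without that line. MAGEA10 changed by -0.37 ± 0.07 in KO1.8 and -2.08 ± 0.08 in KO5.2, so both genes were lowest in KO5.2.

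MAGEA1 had the opposite order of KO lines, with 12.6 and 12.6 CPM in KO1.8 and 44.1 and 49.3 CPM in KO5.2, against 72.3 and 68.8 CPM in NTC and 48.9 and 50.03 CPM in Par. KO1.8 stood apart from every other library, KO5.2 overlapped Par, and NTC was highest. The log2 change was -2.23 ± 0.07 in KO1.8 (adjusted p = 2.72e-11) and -0.34 ± 0.06 in KO5.2 (adjusted p = 2.37e-04, edgeR quasi-likelihood test), KO5.2 minus KO1.8 was 1.89 ± 0.08 (adjusted p = 6.46e-10, same test), and NTC minus Par was 0.51 ± 0.07. The decrease in KO5.2 was therefore smaller than the difference between the control lines.

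The remaining MAGEA rows changed less. MAGEA2 had 172 and 172 CPM in KO1.8 and 159 and 167 CPM in KO5.2, against 215 and 222 CPM in NTC and 209 and 196 CPM in Par, and its copy MAGEA2B changed alike, by -0.33 ± 0.04 and -0.34 ± 0.04 in the KO lines. MAGEA9 and MAGEA9B changed by -0.34 ± 0.05 and -0.33 ± 0.05, and MAGEA11, known as a coregulator of the androgen receptor, by -0.31 ± 0.05. MAGEA3, whose protein activates the ligase TRIM28, had 251 and 265 CPM in KO1.8 and 229.7 and 243 CPM in KO5.2, against 239.6 and 243 CPM in NTC and 221 and 232 CPM in Par, and the groups overlapped. MAGEA3 changed by 0.08 ± 0.04, MAGEA6 by 0.08 ± 0.04 and MAGEA12 by 0.01 ± 0.05, and none of the 3 was called for both KO lines together (adjusted p = 0.115, 0.117 and 0.885, edgeR quasi-likelihood test). In KO1.8 alone MAGEA3 and MAGEA6 were called higher, by 0.14 and 0.14. The MAGEA sum was 1128 and 1185 CPM in KO1.8 and 954 and 981 CPM in KO5.2, against 1319.6 and 1326 CPM in NTC and 1203 and 1221 CPM in Par. The sum changed by -0.26 ± 0.03 (adjusted p = 2.27e-05, same test).

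Among the MAGEB and MAGEC genes, 4 and 1 were tested, and the MAGEB sum changed by 0.08 ± 0.06 in the KO lines (adjusted p = 0.279, edgeR quasi-likelihood test). By line the MAGEB sum was called in opposite directions, 0.40 ± 0.07 in KO1.8 and -0.25 ± 0.07 in KO5.2 (adjusted p = 2.22e-04 and 0.00680, same test). MAGEB1 had 27.5 and 32.96 CPM in KO1.8 and 12.6 and 14.2 CPM in KO5.2, against 24.3 and 26.9 CPM in NTC and 16.5 and 19.5 CPM in Par, and MAGEB2 had 108 and 123 CPM in KO1.8 and 80.5 and 78.4 CPM in KO5.2, against 87.2 and 87.6 CPM in NTC and 80.7 and 95.5 CPM in Par. Both were highest in KO1.8, and the KO lines lay on either side of the controls for MAGEB1. MAGEB1 changed by 0.49 ± 0.09 in KO1.8 and -0.68 ± 0.10 in KO5.2, and MAGEB2 by 0.40 ± 0.07 and -0.14 ± 0.07, the last of which was not called (adjusted p = 0.0990, edgeR quasi-likelihood test). MAGEB6 was low, with counts of 29 and 29 in KO1.8 and 6 and 15 in KO5.2, against 9 and 4 in NTC and 11 and 6 in Par, and both KO1.8 libraries and 1 of KO5.2 were above every control in CPM. It was called higher for both KO lines together (change 1.07 ± 0.37, adjusted p = 0.0260, same test) and in KO1.8 (1.78 ± 0.38), and not in KO5.2 (0.36 ± 0.48), without KO1.8 (change 0.35), against Par alone, by DESeq2, or without the second library of KO5.2, NTC or Par. MAGEB17 was low, with counts of 2 and 1 in KO1.8 and 1 and 0 in KO5.2, against 37 and 32 in NTC and 11 and 15 in Par, and was called lower in both KO lines. MAGEC1, an antigen of myeloma and melanoma also named CT7, was 46.1 and 51.9 CPM in KO1.8 and 52.7 and 60.5 CPM in KO5.2, against 45.3 and 50.7 CPM in NTC and 43.7 and 47.5 CPM in Par, a change of 0.17 ± 0.06 (adjusted p = 0.0307, same test) with overlapping groups that was not called without KO5.2 (adjusted p = 0.500, same test) or by DESeq2 (adjusted p = 0.0592).

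The CTAG genes encode the antigens NY-ESO-1 (CTAG1A and CTAG1B) and LAGE-1 (CTAG2). CTAG2 had 170.2 and 181 CPM in KO1.8 and 101 and 103 CPM in KO5.2, against 168 and 169 CPM in NTC and 168 and 182 CPM in Par. KO5.2 was apart from the rest, and KO1.8 lay among the controls. It changed by 0.03 ± 0.05 in KO1.8 (adjusted p = 0.647) and -0.75 ± 0.05 in KO5.2 (adjusted p = 3.05e-08, edgeR quasi-likelihood test). CTAG1A had 187 and 199.5 CPM in KO1.8 and 176 and 175 CPM in KO5.2, against 180.5 and 168 CPM in NTC and 197 and 198 CPM in Par, with KO and control libraries overlapping. It changed by -0.01 ± 0.04 in the KO lines (adjusted p = 0.827, same test), and the CTAG sum by -0.14 ± 0.04 (adjusted p = 0.00684, same test). By line the CTAG sum changed by 0.05 ± 0.05 in KO1.8, which was not called, and by -0.32 ± 0.05 in KO5.2 (adjusted p = 0.454 and 4.27e-05, same test).

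SSX genes encode repressors known from their fusion to the SWI/SNF subunit SS18 in synovial sarcoma. SSX2 had 185 and 171 CPM in KO1.8 and 113 and 105 CPM in KO5.2, against 104 and 102 CPM in NTC and 94.6 and 97.5 CPM in Par. All KO libraries were above all controls, KO1.8 by the wider margin. The change was 0.84 ± 0.05 in KO1.8 (adjusted p = 1.40e-08) and 0.13 ± 0.05 in KO5.2 (adjusted p = 0.0459, edgeR quasi-likelihood test), and the KO lines differed by -0.71 ± 0.06. SSX2B, its copy, was called in KO1.8 (0.83 ± 0.06) and not in KO5.2 (0.09 ± 0.06). Of 7 SSX rows tested, 4 were higher in the KO lines together and the other 3 were not called. SSX4, whose copy is SSX4B, was low. It had counts of 42 and 51 in KO1.8 and 51 and 36 in KO5.2, against 6 and 27 in NTC and 27 and 12 in Par. The SSX sum changed by 0.48 ± 0.04 over both KO lines. By line it was 0.84 ± 0.05 in KO1.8 (adjusted p = 1.39e-08, edgeR quasi-likelihood test). In KO5.2 the sum changed by 0.12 ± 0.05, which was not called (adjusted p = 0.0558, same test).

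XAGE1 encodes a small antigen of the GAGE-like group. XAGE1A had 56.8 and 55.9 CPM in KO1.8 and 54.97 and 54.6 CPM in KO5.2, against 36.5 and 34.8 CPM in NTC and 46.1 and 45.5 CPM in Par. All KO libraries were above all controls, and NTC was below Par. The change was 0.48 ± 0.05 in KO1.8 and 0.44 ± 0.05 in KO5.2 (adjusted p = 5.53e-06 and 6.79e-06, edgeR quasi-likelihood test), and KO5.2 minus KO1.8 was -0.04 ± 0.06 (adjusted p = 0.612, same test). NTC minus Par was -0.36 ± 0.06, a difference between controls close in size to the KO change. The other XAGE1 rows are copies of these reads, the XAGE sum changed by 0.46 ± 0.04 (adjusted p = 1.46e-07, same test), and the other 4 XAGE genes were not tested.

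PRAME, the substrate receptor of a cullin ligase and a marker used in the pathology of melanoma, had 458 and 475 CPM in KO1.8 and 533 and 515 CPM in KO5.2, against 472 and 445 CPM in NTC and 457 and 479 CPM in Par. The groups overlapped. It changed by 0.09 ± 0.04 in the KO lines, 0.01 ± 0.05 in KO1.8 and 0.18 ± 0.05 in KO5.2 (adjusted p = 0.0498, 0.891 and 0.00437, edgeR quasi-likelihood test), so the call for both KO lines lay at the threshold, and without KO5.2 the change was 0.01 (adjusted p = 0.902, same test).

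**Figure D3:**
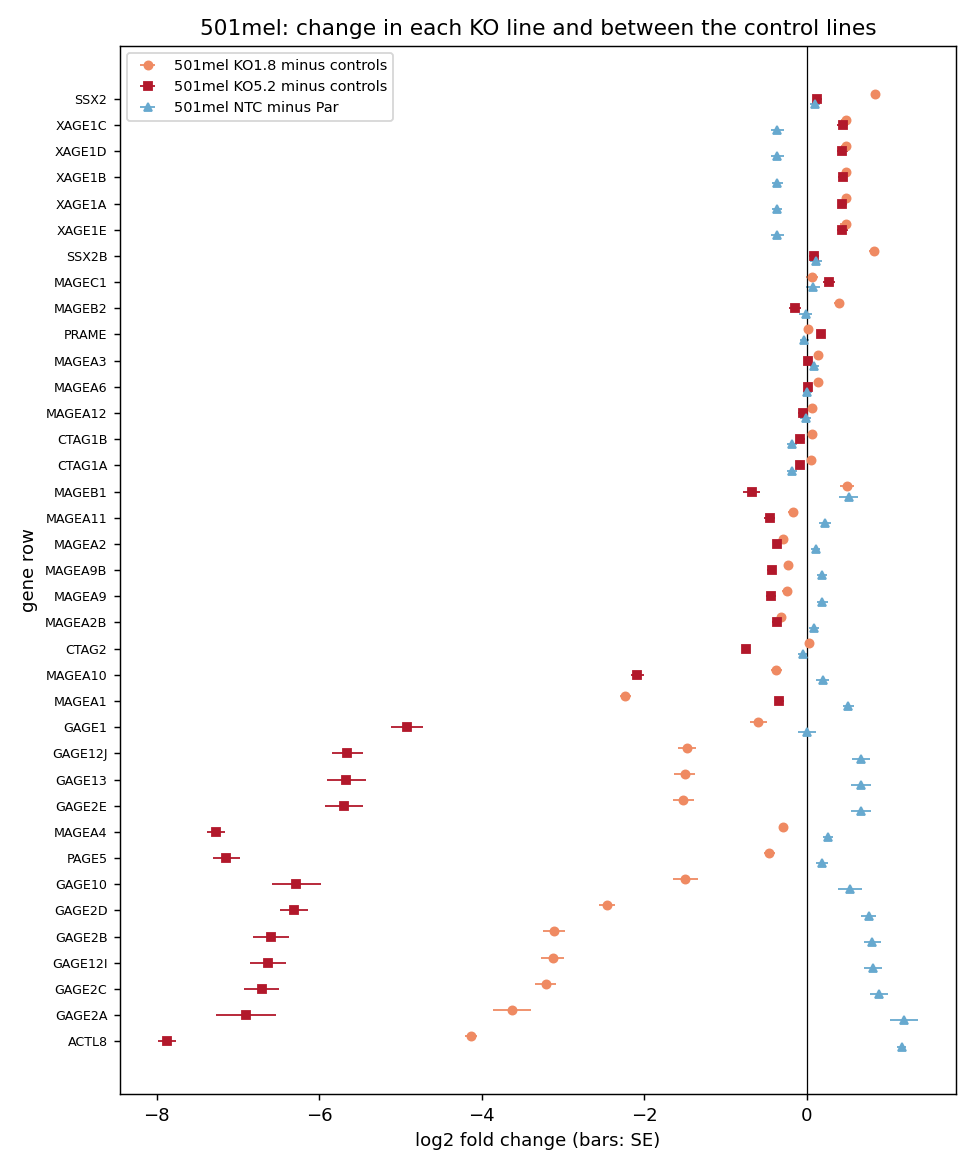
Log2 fold change of each tested 501mel gene that reached 5 CPM in any library, for KO1.8 minus controls, KO5.2 minus controls and NTC minus Par, with bars of 1 SE. ACTL8 and most GAGE rows are well left of 0 in both KO lines, PAGE5 and MAGEA4 far left in KO5.2 and close to 0 in KO1.8, and the control difference points right for ACTL8 and most GAGE rows.

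The 2 KO lines of 501mel differed in 27 of the 45 genes, KO5.2 being higher in 2 (MAGEA1 and PRAME) and lower in 25, beside 41.3% of all genes called in either direction (20.6% higher and 20.7% lower, edgeR quasi-likelihood test). The median difference was -0.71 on the log2 scale over the genes tested, against 0.00 over all genes. Near-identical copies, the GAGE rows among them, enter these numbers as separate rows. KO1.8 against the controls had 14 genes higher and 20 lower (40.2% of all genes called, 20.1% in each direction), and KO5.2 had 10 higher and 23 lower (53.5%, with 26.5% higher and 27.0% lower). The control lines differed as well, with 14 of the genes higher and 6 lower in NTC than in Par (15.7% of all genes called, 6.77% higher and 8.93% lower). Of the 14, 9 were GAGE rows, and the others were ACTL8, MAGEA1, MAGEA4, MAGEB1 and MAGEB17. The 6 lower in NTC were CTAG1A and the 5 XAGE1 rows.

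In SKmel147 fewer of the genes were called. Of the 23 genes tested, 1 was higher and 8 were lower in the KO lines than in the controls and 14 were not called, beside 17.7% of all 18361 genes tested (8.07% higher and 9.60% lower; edgeR quasi-likelihood test). The median change was -0.15 over the genes tested and -0.01 over all genes. The 8 lower were MAGEA1, PRAME, PAGE5 and the 5 XAGE1 rows, which are copies of 1 set of reads. MAGEA1 and PRAME were called lower in all 3 KO lines, and XAGE1 rows in KO1.4 and KO3.20. The share of all genes called lower in every KO line was not computed. In 6 of the 23 all KO libraries were below all controls (PRAME and the 5 XAGE1 rows), against 4.59% of all genes tested, and no gene had all KO libraries above, against 734 of all 18361 genes tested. With the line as the replicate, 3 lines against 2, 0 of 20 genes were called, against 13 of all 19729 (0.0659%), while 7 of the 20 and 12.7% of all genes had an unadjusted p under 0.05 (edgeR quasi-likelihood test), and limma voom with lines as blocks called the 5 XAGE1 rows, beside 3.25% of all genes. The median includes 8 genes that were at 0 in at least 1 line.

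XAGE1A had 8.500 and 13.7 CPM in KO1.4, 13.9 and 15.6 CPM in KO1.5 and 8.56 and 7.24 CPM in KO3.20, against 18.1 and 21.97 CPM in NT and 20.3 and 23.6 CPM in Par. No KO library reached a control, and KO3.20 had the lowest mean. The log2 change was -0.94 ± 0.13 for the 3 KO lines (adjusted p = 5.96e-04, edgeR quasi-likelihood test), -1.41 ± 0.19 in KO3.20, -0.90 ± 0.19 in KO1.4 and -0.51 ± 0.18 in KO1.5. The change in KO1.5 was not called (adjusted p = 0.0983, same test). NT minus Par was -0.13 ± 0.21 (adjusted p = 0.730, same test), so the control lines were not shown to differ.

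MAGEA1 had 90.2 and 91.02 CPM in KO1.4, 79.5 and 86.4 CPM in KO1.5 and 69.3 and 72.7 CPM in KO3.20, against 169 and 168 CPM in NT and 84.01 and 80.8 CPM in Par. Both NT libraries were far above the rest, and Par lay within the range of the KO libraries. The log2 change was -0.54 ± 0.06 against the mean of NT and Par (adjusted p = 1.71e-04, edgeR quasi-likelihood test), and NT minus Par was 1.03 ± 0.10 (adjusted p = 1.87e-04, same test), so the control lines differed by more than the KO lines did from their mean. Against Par alone the change was -0.02 (adjusted p = 0.879, same test), so the call rested on NT.

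PRAME had 93.1 and 89.6 CPM in KO1.4, 79.2 and 88.8 CPM in KO1.5 and 98.7 and 96.4 CPM in KO3.20, against 105 and 113 CPM in NT and 162 and 132 CPM in Par. All KO libraries were below all controls, and NT was below Par. The change was -0.48 ± 0.08 for the 3 KO lines (adjusted p = 0.00137, edgeR quasi-likelihood test), and NT minus Par was -0.43 ± 0.12 (adjusted p = 0.0456, same test). Against NT alone it was -0.26 (adjusted p = 0.111, same test), which was not called. PRAME lies on chromosome 22, whose other 347 tested genes had a median of -0.53 for NT minus Par and -0.15 for KO minus controls, against 0.00 and -0.01 over all genes. The part of chromosome 22 as a whole in the PRAME values was not tested.

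MAGEA4 had 61.01 and 62.4 CPM in KO1.4, 57.97 and 67.2 CPM in KO1.5 and 66.4 and 54.5 CPM in KO3.20, against 48.5 and 60.1 CPM in NT and 44.02 and 42.2 CPM in Par. The groups overlapped through 1 NT library. It changed by 0.35 ± 0.09 in the KO lines (adjusted p = 0.0223, edgeR quasi-likelihood test) and was the only gene called higher, and in no single KO line was the change called. It lost the call in 6 of the 10 fits that each left out 1 library (adjusted p 0.0525 to 0.0811, same test) and against NT alone (change 0.18, adjusted p = 0.380, same test). MAGEA3 had 234 and 249.9 CPM in KO1.4, 244 and 274 CPM in KO1.5 and 221 and 216 CPM in KO3.20, against 261 and 246 CPM in NT and 266 and 244 CPM in Par, with overlapping groups. MAGEA3 changed by -0.09 ± 0.07, MAGEA6 by -0.09 ± 0.07, MAGEA10 by 0.03 ± 0.08, MAGEA12 by -0.01 ± 0.07 and MAGEA2 by -0.15 ± 0.08, none called (adjusted p = 0.396, 0.378, 0.843, 0.921 and 0.236, edgeR quasi-likelihood test). The MAGEA sum changed by -0.10 ± 0.06 (adjusted p = 0.345, same test).

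Several genes came from 1 or 2 SKmel147 lines at low counts. GAGE12C, GAGE12D and GAGE12E had 34 and 22 reads each in KO3.20, 2 and 2 in Par and 0 in the other lines, KO1.4, KO1.5 and NT. PAGE5 had 5 and 14 reads in KO1.4, 0 in KO1.5 and KO3.20, 1 and 1 in NT and 39 and 16 in Par, and PAGE1 had 24 and 34 in Par and 0 elsewhere. CTAG2 had 10 and 28 reads in KO1.4, 2 and 0 in KO3.20, 14 and 11 in NT and 0 in KO1.5 and Par. Each of these genes thus varied as much between control lines or between KO lines as between KO and controls, and fold changes are not given where a line was at 0. Of the family sums for the 3 KO lines, XAGE was called lower (-0.93 ± 0.13, adjusted p = 4.09e-04, edgeR quasi-likelihood test), GAGE higher (adjusted p = 0.0223, same test) and PAGE lower (adjusted p = 0.0375, same test), and CTAG and SSX were not called (adjusted p = 1.000 and 0.0639, same test). The GAGE sum was 0.992 and 0.619 CPM in KO1.4, 0 and 0.257 CPM in KO1.5 and 3.76 and 2.76 CPM in KO3.20, against 0 and 0 CPM in NT and 0.898 and 0.688 CPM in Par. The PAGE sum was 0.236 and 0.481 CPM in KO1.4, 0 and 0.0367 CPM in KO1.5 and 0 and 0 CPM in KO3.20, against 0.0339 and 0.0360 CPM in NT and 1.85 and 2.19 CPM in Par. Only KO3.20 had both libraries above all controls for GAGE, and only Par was above the KO lines for PAGE. The equal counts of GAGE12C, GAGE12D and GAGE12E in KO3.20 each enter the GAGE sum. GAGE12E and GAGE13 are outside the 20 most abundant tested genes in SKmel147 and are named after their values were seen. The call of PAGE5 for the 3 KO lines was lost in every fit that left out 1 library, and against NT alone.

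**Figure D4:**
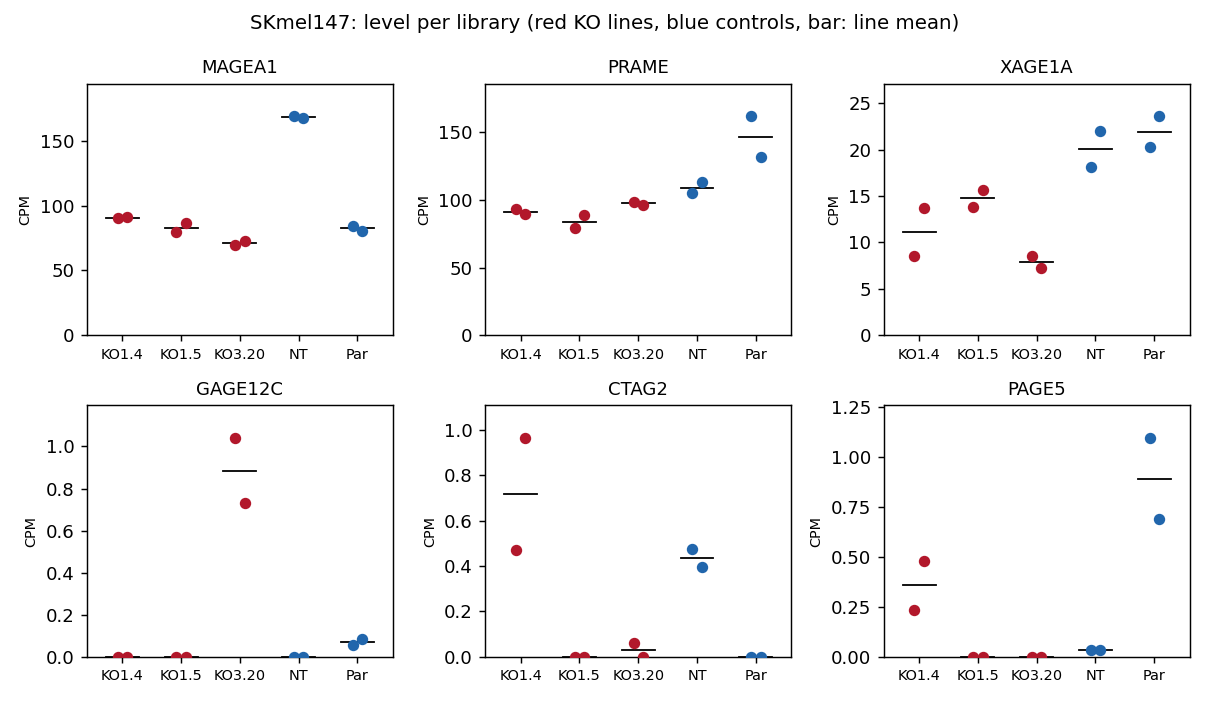
Level of 6 genes in each SKmel147 library in CPM on linear axes that start at 0, with KO lines in red left of the controls in blue, 2 libraries per line as points and their mean as a bar. XAGE1A and PRAME were below every control in every KO library, MAGEA1 was high in NT alone, and GAGE12C, CTAG2 and PAGE5 were each detected in a few lines near 1 CPM or below.

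Against the mean of the controls, KO1.4 had 1 gene higher and 7 lower (8.77% of all genes called, 3.97% higher and 4.80% lower). KO1.5 had 2 lower (11.2%, with 5.42% higher and 5.77% lower), and KO3.20 had 4 higher and 8 lower (12.6%, with 6.49% higher and 6.11% lower). The 4 higher in KO3.20 were GAGE12C, GAGE12D, GAGE12E and GAGE13, and the 1 higher in KO1.4 was CTAG2. Between KO lines, KO1.5 minus KO1.4 had 2 lower (2.17%, with 1.18% higher and 0.991% lower). KO3.20 minus KO1.4 had 3 higher and 2 lower (1.90%, with 1.22% higher and 0.675% lower), and KO3.20 minus KO1.5 had 4 higher and 5 lower (5.25%, with 3.01% higher and 2.24% lower). NT minus Par had 2 higher (CTAG2 and MAGEA1) and 3 lower (PAGE1, PAGE5 and PRAME), beside 9.27% of all genes, 3.82% higher and 5.45% lower (edgeR quasi-likelihood test throughout). The control lines thus differed in 5 of the 23 genes.

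The difference of KO effects between the cell lines was tested in a joint fit of all 18 libraries. Of 49 genes tested, 5 had a higher and 6 a lower effect in SKmel147 than in 501mel, beside 21.3% of all genes, 11.3% higher and 9.99% lower (edgeR quasi-likelihood test). For 33 of the 49 at least 1 line was at 0, where a mean of log levels is not well defined. This leaves 16 genes with 4 higher and 6 lower. The share called among all genes with counts in every line was not computed. With the line as the replicate 0 of 46 genes were called, against 3 of all 21374 (0.0140%), and 10 of the 46 and 10.3% of all genes had an unadjusted p under 0.05 (same test), while limma voom with lines as blocks called 5, beside 2.15% of all genes. MAGEA4 showed the widest of these after the low-count gene MAGEB17, 4.13 ± 0.14 on the log2 scale (adjusted p = 5.91e-12), with 0.35 in SKmel147 and -3.78 in 501mel, and MAGEA10 differed by 1.27 ± 0.11 (adjusted p = 3.73e-07, edgeR quasi-likelihood test). MAGEA1 differed by 0.76 ± 0.08 (adjusted p = 5.28e-06, same test), being called lower than the mean of the controls in both. In SKmel147 that call rested on NT, with Par within the range of the KO libraries, and in 501mel KO5.2 overlapped Par. XAGE1A differed by -1.39 ± 0.15 (adjusted p = 5.85e-06, same test) and PRAME by -0.56 ± 0.09 (adjusted p = 2.41e-04, same test). Both were lower in the SKmel147 KO lines, PRAME without a call against NT alone. In 501mel, XAGE1A was higher in both KO lines, while PRAME was called higher in KO5.2 (0.18 ± 0.05) and not in KO1.8 (0.01 ± 0.05). The fourth higher gene, MAGEB17, had at most 5 reads in any SKmel147 library.

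**Figure D5:**
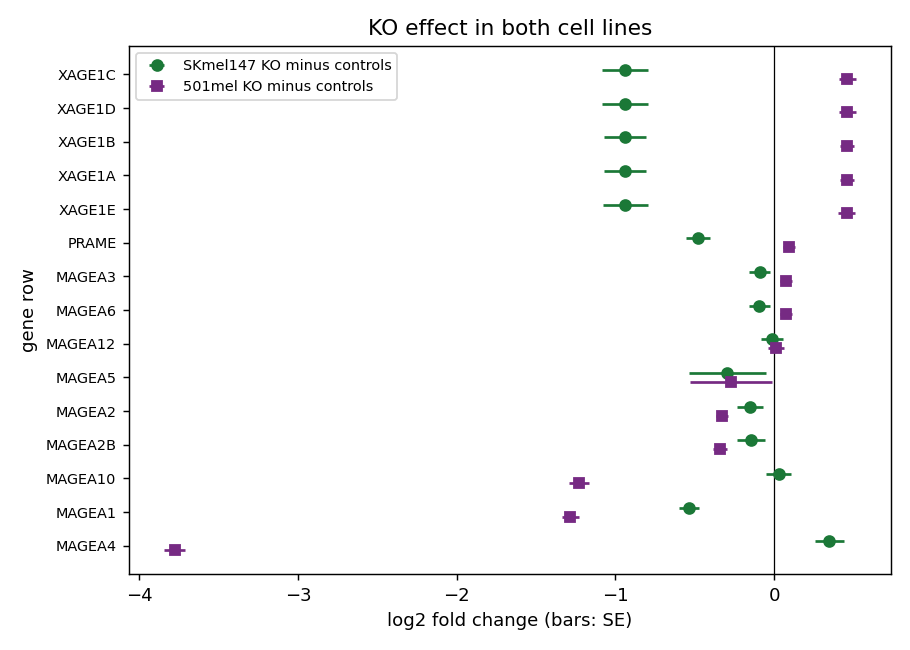
Log2 fold change of KO minus controls, with bars of 1 SE, for 15 genes tested in both cell lines with counts in every line, SKmel147 in green and 501mel in purple. The XAGE1 rows and PRAME lie on opposite sides of 0, MAGEA4 and MAGEA10 were lower in 501mel alone, and MAGEA3, MAGEA6 and MAGEA12 lie near 0 in both.

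The genes around ACTL8 were not lower as ACTL8 was, while those around GAGE2A were somewhat lower in KO5.2. For ACTL8, the 10 nearest tested genes outside the 76, 5 on each side in GENCODE 29 order, changed by -0.91 to 0.80 in the 501mel KO lines with a median of 0.12, against -6.00 for ACTL8. Around PAGE5 the median was 0.00 in the KO lines together and -0.31 in KO5.2, and around GAGE2A it was -0.30 and -0.72. Around MAGEA4 the median was 0.04, but PASD1, itself a cancer-testis antigen, changed by -3.31 ± 0.40 in the KO lines (adjusted p = 9.34e-06, edgeR quasi-likelihood test) and by -3.74 ± 0.32 for NTC minus Par, and is named after its values were seen. The cancer-testis CSAG rows beside the MAGEA cluster are also named after their values were seen. CSAG1, CSAG2, CSAG3 and CSAG4 changed by -0.05 ± 0.05, 0.14 ± 0.05, 0.13 ± 0.05 and 0.47 ± 0.12. All but CSAG1 were called higher (adjusted p = 0.0307, 0.0364 and 0.00453, edgeR quasi-likelihood test). On the X chromosome the other 516 tested genes had medians of 0.21 in KO1.8 and 0.01 in KO5.2, and of -0.25 for KO5.2 minus KO1.8, against 0.00 in each over all genes.

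Germline and cancer-testis genes outside the symbol rule, form a list of 50. In 501mel, 7 of 20 tested were higher and 4 lower, beside 24.7% and 26.5% of all genes (median 0.02, against -0.01 over all genes). In SKmel147, 6 of 25 were higher and 4 lower, beside 8.07% and 9.60% of all genes (median -0.09, against -0.01). TEX15, which acts in meiosis and in transposon silencing of the mouse germline, had 6.50 and 7.15 CPM in KO1.8 and 2.47 and 3.17 CPM in KO5.2, against 17.96 and 21.9 CPM in NTC and 12.2 and 12.4 CPM in Par, all KO libraries below all controls. Its change of -1.83 ± 0.10 (adjusted p = 3.69e-09, edgeR quasi-likelihood test) was deeper in KO5.2 and NTC was above Par, as for ACTL8. The kinetochore gene OIP5 changed by 0.53 ± 0.06 and ATAD2, a chromatin ATPase, by 0.30 ± 0.04. In SKmel147, SAGE1 had 0 and 0 CPM in KO1.4, 0 and 0 CPM in KO1.5 and 0 and 0 CPM in KO3.20, against 8.48 and 7.92 CPM in NT and 0 and 0.172 CPM in Par, near 0 outside NT, and ROPN1, a sperm tail protein, changed by 1.35 ± 0.26 (adjusted p = 0.00383, same test).

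Of 28 genes that methylate DNA or repress germline genes through chromatin, 8 were higher and 13 lower in 501mel (24.7% and 26.5% of all genes), with a median of -0.05, and 2 were higher and 4 lower in SKmel147 (8.07% and 9.60% of all genes), also with a median of -0.05. DNMT1, the maintenance methyltransferase, named after its values were seen, changed by -0.06 ± 0.04 in 501mel (adjusted p = 0.230, edgeR quasi-likelihood test). MAX, a partner of the germline repressor MGA, was 39.9 and 43.2 CPM in KO1.8 and 25.9 and 25.2 CPM in KO5.2, against 53.7 and 50.5 CPM in NTC and 52.4 and 46.1 CPM in Par. It changed by -0.64 ± 0.05 (adjusted p = 3.06e-07, same test) and was lowest in KO5.2. TRIM28 changed by 0.31 ± 0.04 and HDAC1 by 0.29 ± 0.04 in 501mel. EZH2, the Polycomb methyltransferase, was lower in both cell lines, the change being -0.34 ± 0.05 in 501mel and -0.32 ± 0.07 in SKmel147, where KDM1A changed by -0.32 ± 0.06, HDAC2 by -0.33 ± 0.08 and TET2, which oxidises methylated cytosine, by 0.42 ± 0.09.

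The type II MAGE genes are broadly expressed. In 501mel, 5 of 9 tested were higher and 3 lower (24.7% and 26.5% of all genes), MAGED2 by 0.68 ± 0.05 and NDN by 0.61 ± 0.07. In SKmel147, 1 of 8 was higher and 4 lower (8.07% and 9.60% of all genes). MAGED4B had 1.32 and 1.24 CPM in KO1.4, 1.84 and 1.17 CPM in KO1.5 and 0.0611 and 0.199 CPM in KO3.20, against 3.12 and 3.96 CPM in NT and 8.64 and 11.96 CPM in Par, all KO libraries below all controls and KO3.20 lowest. Its change of -3.25 ± 0.22 (adjusted p = 2.58e-06, edgeR quasi-likelihood test) stood beside -1.54 ± 0.28 for NT minus Par, and its copy MAGED4 changed by -3.22 ± 0.25. MAGED1 was higher in the KO lines of both, by 0.37 ± 0.08 in SKmel147 and 0.32 ± 0.04 in 501mel.

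Of 16 genes whose proteins bind MAGE, PRAME or SSX proteins, 5 of 14 tested were higher and 4 lower in 501mel (24.7% and 26.5% of all genes), and 2 of 15 were lower in SKmel147 (9.60% of all genes). SS18, the SWI/SNF subunit, changed by -0.32 ± 0.05 in 501mel, and the kinase PRKAA2 by -0.44 ± 0.09 in SKmel147, while in 501mel PRKAA2 was at 0 in NTC and 2.63 and 3.43 CPM in Par. For the presentation of these antigens, 6 of 14 HLA class I pathway genes were higher and 2 lower in 501mel (24.7% and 26.5% of all genes), and 2 were higher and 3 lower in SKmel147 (8.07% and 9.60%). HLA-B had 14.4 and 16.1 CPM in KO1.8 and 10.3 and 4.68 CPM in KO5.2, against 48.5 and 42.8 CPM in NTC and 28.8 and 36.2 CPM in Par, all KO libraries below all controls, a change of -1.85 ± 0.14 (adjusted p = 7.79e-08, edgeR quasi-likelihood test). The peptide transporter TAP1 changed by 0.31 ± 0.04 in 501mel and 0.43 ± 0.10 in SKmel147, where NT minus Par was -1.15 ± 0.16. HLA genes share sequence, so their rows are uncertain in the same way as the copies above.

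Of 8 melanocyte lineage antigens, which are presented by the same route, 1 was higher and 3 lower in 501mel (24.7% and 26.5% of all genes), and 5 were tested in SKmel147, with a median change of -0.14. TYRP1 had 3371 and 3743 CPM in KO1.8 and 980.5 and 996 CPM in KO5.2, against 4496 and 4232 CPM in NTC and 3212 and 3157 CPM in Par. KO5.2 was far below the rest, as for MAGEA4 and PAGE5, and KO1.8 lay among the controls. DCT changed by 0.41 ± 0.05, and NTC minus Par was -0.71 ± 0.07.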

How the data were processed

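Gene counts of 18 libraries were used as the authors deposited them, as raw whole-number counts per gene symbol in 1 table per cell line. Per the submitters' processing notes, reads were aligned with STAR 2.6.0 to GRCh37 (hg19) and counted with featureCounts, and per the labels' protocols the libraries were directional. Which annotation was used, whether strand was counted, and how reads matching several copies were handled is not given in the sources used, and the last bears directly on near-identical genes. From the counts, edgeR 4.0.16 in R 4.3.3 was run per cell line (filterByExpr by line, TMM scaling, 1 coefficient per line, quasi-likelihood test, Benjamini-Hochberg adjustment over all genes tested, called at 0.05), with KO as the mean of the KO lines and controls as the mean of Par and NT or NTC. A joint fit of all 18 libraries tested the difference between cell lines, and family sums replaced the copies of a family by 1 row. Alternatives used DESeq2 1.42.0 and limma 3.58.1. The fits were tested on counts simulated with library spread and no difference between the lines of an arm. Of changes of 1 on the log2 scale, 95% were recovered in SKmel147 and 96% in 501mel. False calls numbered 8 among 17953 genes in SKmel147 and 11 among 15860 in 501mel. Without line differences, the simulation cannot show whether calls hold across lines. Genes named are the 20 most abundant tested in each cell line plus ACTL8 and PRAME, up to 4 genes with the smallest p from each other list, and others marked as named after their values were seen. Chromosome, gene order and length came from GENCODE 29, which matched 72 of the 76 genes, and promoters from RefSeq GRCh38.p14. No coordinates were converted. The genes and lists were chosen with earlier results of these data known.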

Additional observations from a re-analysis of the deposited data

Results flagged for a closer look

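The change in the KO lines differed between the cell lines for 10 of the 16 tested rows with counts in every line. This was by the test of the difference itself in the joint fit (SKmel147 minus 501mel, log2 scale, edgeR quasi-likelihood test). Libraries were the replicates in that test. It called 21.3% of all genes tested, without the restriction to counts in every line. The share under that restriction was not computed. With the line as the replicate 0 of 46 genes were called, against 3 of all 21374, so the values describe these lines. MAGEA4 differed by 4.134, being lower in 501mel KO5.2 above all. MAGEA10 differed by 1.267 and MAGEA1 by 0.755. MAGEB17 differed by 4.250 on very few reads. PRAME differed by -0.565. The XAGE1 copies, which are 1 set of reads, differed by -1.386 (XAGE1A), -1.388 (XAGE1B), -1.386 (XAGE1C), -1.387 (XAGE1D) and -1.382 (XAGE1E).

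Single libraries stood far from the others of their arm by Dixon's criterion in 2 of 81 groups checked. Chance flags about 1 in 20 groups, a larger share than this. Each arm also pools different lines. MAGEA12 was at 131.4 CPM in the second KO1.8 library of 501mel, and CTAG2 at 182.2 CPM in the second Par library of 501mel.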

How the results depend on the processing

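Counts below are of cancer-testis antigen genes called in either direction unless stated, and the causes of the changes were not tested. Where no share of all genes stands beside a count, a changed count need not concern these genes in particular. With the line as the replicate, the calls for KO minus controls were 0 in 501mel (0 higher, 0 lower, 0 family sums) and 0 in SKmel147 (0 higher, 0 lower, 0 family sums), and 0 for the difference between cell lines (0 family sums), with fewer samples by construction. Limma voom with a line block gave 13 in 501mel (2 higher, 11 lower, 3 family sums), 5 in SKmel147 (0 higher, 5 lower, 1 family sum) and 5 for the difference (1 family sum). The shares of all genes called in these fits were 5.80%, 3.25% and 2.15%. A 2-fold minimum left 19 in 501mel (3 higher, 3 family sums) and 1 in SKmel147 (0 higher, 1 lower, 2 family sums). DESeq2's Wald test gave 5 for KO1.5, 7 for KO3.20, 2 for NT minus Par, 0 for KO1.5 minus KO1.4, 5 for KO3.20 minus KO1.5 and 19 for the difference between cell lines. For KO1.5, no filter gave 6 and a GC and length correction 6. Higher calls in SKmel147 numbered 0 against NT alone, 0 without KO1.4 and 2 without KO1.5. CTAG2 in SKmel147 had a fitted change of -3.18 against NT alone, with 2 lines at 0. Without KO5.2, CTAG2 in 501mel was 0.032 and MAGEB1 0.49.

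Leaving out 1 library at a time gave 31 to 35 calls in 501mel and 7 to 9 in SKmel147 (0 to 1 higher), 0 to 8 for KO1.4, 0 to 3 for KO1.5, 1 to 5 for NT minus Par, 13 to 20 for NTC minus Par, 0 to 2 for KO1.5 minus KO1.4, 0 to 5 for KO3.20 minus KO1.4, 0 to 9 for KO3.20 minus KO1.5 and 2 to 4 family sums in SKmel147. The lowest value for NTC minus Par was without NTC replicate 2. In such a fit the lone library of a line is assumed to vary like the others. Libraries with the same replicate number did not deviate together, the correlations between lines lying between -0.0251 and 0.138 for 501mel and between -0.267 and 0.324 for SKmel147, so the number was not taken as a pairing. A replicate block gave 36 calls in 501mel, 9 in SKmel147 and 3 for KO3.20 minus KO1.4. ACTL8, the GAGE rows and MAGEA4 in KO5.2 had under 20 reads in some libraries, where counting error limits the size of the decrease.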
